A study of Homo sapiens with 18 samples.

Results

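The genes described are 8 genes of antigen presentation, taken by symbol from the 37550 rows of a table of transcript abundances: the class I heavy chains HLA-B, HLA-C and HLA-E, their shared light chain B2M, the class II chains HLA-DPA1 and HLA-DPB1, the class II pseudogene HLA-DPB2, and CD74, the invariant chain of class II. HLA-DPB2 was chosen by its measured level, far higher in stem cells than in every later group, so its difference from stem cells is given as a description with no test. All 8 symbols were found, and all 8 passed the filter of at least 1 TPM (a transcript's share of a library's transcripts, scaled by length) in at least 2 of 18 libraries.

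The libraries came from H1, an established human embryonic stem cell line, wild-type in every group, in 9 groups of 2 biological replicates. Undifferentiated cells at day 0 are called hPSC. All differentiated cells first had a day-1 medium with A8301 at 1 µM, Trametinib at 250 nM, C59 at 1 µM and LDN193189 at 100 nM, which inhibit TGF-beta receptors, MEK, WNT secretion and BMP receptors. Day-2 anterior neural ectoderm (aNE) then had A8301, LDN193189, C59 and Thiazovivin, a ROCK inhibitor. Day-2 posterior neural ectoderm (pNE) had A8301, LDN193189 and Thiazovivin, plus XAV939, which blocks tankyrase, at 1 µM, TTNPB, which activates retinoid receptors, at 50 nM and 20 ng/mL of FGF2. Day-4 cells of each origin had 1 of 3 further media: forebrain medium with XAV939, LDN193189 and FGF2 gave aNE_T and pNE_T, midbrain medium gave aNE_M and pNE_M, and hindbrain medium gave aNE_H and pNE_H. The make-up of the last 2 media is not used here. Plating density per cm2 was 37500 cells for both day-2 groups, but for day 4 it was 75000 in the aNE series and 150000 in the pNE series. At day 4, origin and plating density therefore cannot be told apart. Between day 2 and day 4 the medium, the day and the plating density all differ. In comparisons with day 2 these cannot be told apart either. All groups are 1 cell line, and since the labels do not say what separated the replicates, p-values measure only the spread between these libraries.

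Class I molecules carry peptides from the cell's own proteins to the surface, where CD8 T cells and natural killer cells read them. A heavy chain (such as HLA-B, HLA-C or HLA-E) pairs with beta-2-microglobulin, the product of B2M, and is loaded in the endoplasmic reticulum with peptides cut by the proteasome and imported by the TAP transporter. Class II molecules, pairs of an alpha and a beta chain such as HLA-DPA1 and HLA-DPB1, present peptides from endosomes mainly on professional immune cells, and CD74 guards their groove until cathepsins degrade it. Class I levels are known to be low in pluripotent and neural cells and to be raised by interferon through NLRC5, and class II depends on CIITA.

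HLA-E (6:30489509-30494194), HLA-C (6:31268749-31272092) and HLA-B (6:31353875-31357179) lie on chromosome 6 of GRCh38.p14, as do HLA-DPA1 (6:33064569-33080748), HLA-DPB1 (6:33075990-33089696) and HLA-DPB2 (6:33112516-33129113), which RefSeq annotates as a transcribed pseudogene. B2M lies at 15:44711517-44718145 and CD74 at 5:150401639-150412910. HLA-B and HLA-C had like patterns of level. B2M was above day 2 in all 3 media after pNE, where HLA-B and HLA-C were below it. CD74 was above day 2 in midbrain medium, where HLA-B and HLA-C were also below it. The 250 bases before the RefSeq start site are shown for these 4 members. They are HLA-B at chr6:31357180-31357429 on the minus strand, HLA-C at chr6:31272093-31272342 on the minus strand, B2M at chr15:44711267-44711516 on the plus strand and CD74 at chr5:150412911-150413160 on the minus strand, each read 5′ to 3′ toward the gene. Capitals mark matches, on either strand, to GAAA and GAAA parted by any 2 bases (the core of an interferon-stimulated response element), to CCAAT (the CCAAT box) and to TGACG (part of a cyclic AMP response element).
HLA-B: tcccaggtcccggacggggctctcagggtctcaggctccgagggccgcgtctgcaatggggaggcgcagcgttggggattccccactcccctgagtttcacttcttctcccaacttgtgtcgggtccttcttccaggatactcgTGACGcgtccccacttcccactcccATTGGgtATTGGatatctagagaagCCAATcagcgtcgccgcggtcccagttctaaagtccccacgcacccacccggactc
HLA-C: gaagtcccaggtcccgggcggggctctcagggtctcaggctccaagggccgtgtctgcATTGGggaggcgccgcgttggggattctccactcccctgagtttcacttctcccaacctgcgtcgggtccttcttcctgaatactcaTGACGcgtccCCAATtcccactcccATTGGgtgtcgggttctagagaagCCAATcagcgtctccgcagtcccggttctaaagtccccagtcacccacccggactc
B2M: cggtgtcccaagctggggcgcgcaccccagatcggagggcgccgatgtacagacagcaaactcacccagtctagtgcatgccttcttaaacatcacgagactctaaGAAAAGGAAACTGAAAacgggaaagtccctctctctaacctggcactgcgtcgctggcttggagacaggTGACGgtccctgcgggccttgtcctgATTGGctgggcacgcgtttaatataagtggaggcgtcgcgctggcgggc
CD74: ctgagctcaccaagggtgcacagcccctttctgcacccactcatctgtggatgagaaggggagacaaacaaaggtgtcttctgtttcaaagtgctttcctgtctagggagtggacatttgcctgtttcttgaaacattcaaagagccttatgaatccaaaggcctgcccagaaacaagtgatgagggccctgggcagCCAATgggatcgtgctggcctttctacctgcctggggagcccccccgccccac
HLA-B and HLA-C each held TGACG, its first base at -106 and -105 from the start, and a CCAAT at -56. HLA-B also held a reversed CCAAT at -81 and at -74. HLA-C also held a CCAAT at -95 and a reversed CCAAT at -192 and at -80. B2M held a pair of overlapping matches to the interferon motif, at -144 and -138, with TGACG at -75 and a reversed CCAAT at -49. CD74 held 1 CCAAT, at -53, and no other match. Over 34788 RefSeq promoters of the same length, the interferon motif was present in 3.02%, CCAAT in 32.02% and TGACG in 21.16%. The promoter table matched 6 of the 8 members, and HLA-E and HLA-DPB2 were not among them. A match describes these letters and does not show a bound site. Only exact matches were marked, so a promoter without a match can still hold a variant of the motif.

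Between 13686 and 14679 genes per library were at or above 1 TPM, and TPM keeps no record of read number, so depth is unknown. The hPSC and day-2 labels were checked on marker genes. POU5F1, the core pluripotency factor, averaged 2889 TPM in hPSC, 163 in aNE and 170 in pNE, and at most 5.46 in any day-4 group. NANOG, DPPA4, TDGF1, PRDM14 and ZFP42 also averaged less at day 2 than in hPSC. Of the same marker list, LIN28A went the other way, from 731 TPM in hPSC to 1322 in aNE and 1053 in pNE. SOX2 did not fall either, at 191 TPM in hPSC, 293 in aNE and 196 in pNE. The forebrain and anterior gene SIX3 averaged 0.03 TPM in hPSC, 190 in aNE and 60.7 in pNE. PAX6 averaged 29.1 TPM in aNE and 1.94 in pNE. Midbrain and hindbrain identity of the day-4 groups is not checked here. The classical heavy chains share sequence: 25.5% of the 31-base words of HLA-B transcripts, 17.0% of those of HLA-C and 11.8% of those of HLA-E occur in other genes of GENCODE 29, against 1.27% to 6.90% for the other 5 members. Levels of the heavy chains are therefore uncertain where the authors' quantification could move reads between copies.

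HLA-B and HLA-C, classical heavy chains that present peptides to T cells, were high at days 0 and 2 and lower in every day-4 group, most of all in midbrain and hindbrain medium. HLA-B was at 36.4 and 35.7 TPM in the 2 hPSC libraries, 26.8 and 29.1 in aNE, and 38.8 and 40.7 in pNE. From aNE it went to 21.7 and 18.4 TPM in forebrain medium, 7.04 and 5.37 in midbrain medium and 7.70 and 9.28 in hindbrain medium. From pNE it went to 23.0 and 22.9 TPM in forebrain medium, 12.6 and 16.3 in midbrain medium and 9.45 and 12.8 in hindbrain medium. Every day-4 library was below every library of its own day-2 origin, and the midbrain and hindbrain libraries of both origins were below every forebrain library. By mean level the order was pNE, hPSC, aNE, pNE_T, aNE_T, pNE_M, pNE_H, aNE_H and aNE_M, and of neighbours in it pNE_M and pNE_H overlapped. In the limma fit, with Benjamini-Hochberg adjustment over all 17033 genes tested, HLA-B fell in aNE_M against aNE by 2.01 ± 0.16 on the log2(TPM + 1) scale (SE, n = 2 libraries a group, adjusted p = 5.8e-07) and in aNE_H by 1.61 ± 0.16 (adjusted p = 6.9e-06). It fell in pNE_M against pNE by 1.41 ± 0.16 (adjusted p = 1.6e-05) and in pNE_H by 1.76 ± 0.16 (adjusted p = 2.2e-06). A gene was called where the adjusted p was below 0.05 and the log2 difference at least 1 in size. By that rule HLA-B was not called in forebrain medium, with a log2 difference of -0.46 ± 0.16 from aNE and -0.77 ± 0.16 from pNE.

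HLA-C stood above HLA-B in every library and was likewise lower in all 3 day-4 media than at day 2. After aNE its lowest group was hindbrain medium, where that of HLA-B was midbrain medium. It was at 191 and 184 TPM in hPSC, 181 and 195 in aNE, and 214 and 216 in pNE. From aNE it went to 109 and 117 TPM in forebrain, 69.7 and 63.5 in midbrain and 56.2 and 57.4 in hindbrain medium. From pNE it went to 141 and 137 TPM in forebrain, 113 and 109 in midbrain and 89.9 and 91.1 in hindbrain medium. Within each origin the 4 groups did not overlap and ran from day 2 through forebrain and midbrain to hindbrain medium. HLA-C fell by 1.48 ± 0.06 in aNE_M (adjusted p = 1.3e-09) and by 1.71 ± 0.06 in aNE_H (adjusted p = 7.5e-10) against aNE. Against pNE it fell by 1.24 ± 0.06 in pNE_H (adjusted p = 1.0e-08), while the difference in pNE_M, -0.95 ± 0.06 (adjusted p = 9.9e-08), missed the fold threshold. Over the 18 libraries HLA-B and HLA-C had a Pearson r of 0.955 on the log2 scale, given as a description: these libraries share groups, and the 2 genes share sequence.

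HLA-E, a nonclassical heavy chain that shows leader peptides of other class I chains to NK cells, did not follow HLA-B and HLA-C. It was at 20.9 and 20.7 TPM in hPSC, 14.9 and 12.9 in aNE and 13.7 and 17.8 in pNE. From aNE it went to 13.4 and 15.3 TPM in forebrain, 19.4 and 20.9 in midbrain and 14.0 and 12.0 in hindbrain medium. From pNE it went to 12.9 and 12.7 TPM in forebrain, 28.2 and 28.2 in midbrain and 21.1 and 23.7 in hindbrain medium. Its highest libraries were thus those of pNE_M, a group in which HLA-B was low. The call threshold was passed in 1 of the comparisons, pNE_M against pNE_T, where HLA-E rose by 1.08 ± 0.13 (limma, adjusted p = 3.0e-05). Against day 2 its differences in midbrain medium were 0.51 ± 0.13 from aNE (adjusted p = 0.0078) and 0.81 ± 0.13 from pNE (adjusted p = 0.00026), both under the fold threshold.

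**Figure D1:**
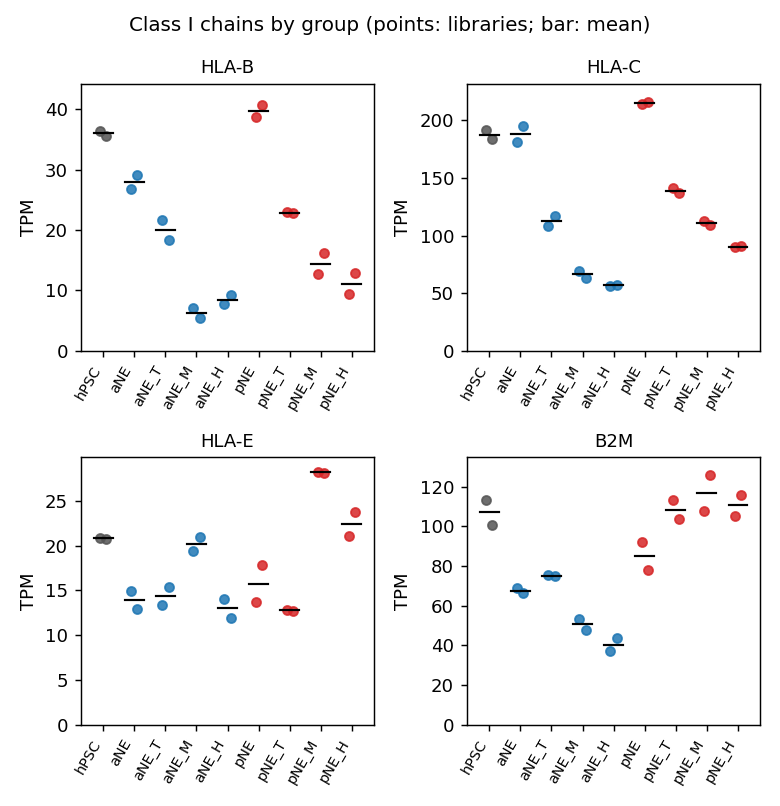
Levels of the 4 class I chains in TPM (linear axes from 0) in the 9 groups; points are libraries, bars are means of 2, and colours mark hPSC (grey), aNE-derived (blue) and pNE-derived (red) cells. HLA-B and HLA-C are lowest in midbrain and hindbrain medium, HLA-E is highest in pNE_M at 28.2 TPM in both libraries, and B2M is lower in aNE-derived than in pNE-derived day-4 cells.

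B2M, the light chain that every class I heavy chain needs to reach the surface, split by origin. It was at 113 and 101 TPM in hPSC, 68.8 and 66.5 in aNE and 92.2 and 78.0 in pNE. From aNE it went to 75.3 and 75.1 TPM in forebrain, 53.2 and 47.8 in midbrain and 37.0 and 43.7 in hindbrain medium. From pNE it went to 113 and 104 TPM in forebrain, 108 and 126 in midbrain and 105 and 116 in hindbrain medium. In all 3 media the pNE-derived libraries were above the aNE-derived ones, and the 3 pNE-derived day-4 groups overlapped one another and hPSC. Below them the order was pNE, aNE_T, aNE, aNE_M and aNE_H, with no overlap between neighbours. B2M was 1.19 ± 0.11 higher in pNE_M than in aNE_M (limma, adjusted p = 5.6e-06) and 1.44 ± 0.11 higher in pNE_H than in aNE_H (adjusted p = 7.8e-07). In forebrain medium the difference was 0.52 ± 0.11 (adjusted p = 0.0040), under the fold threshold. None of its differences from day 2 of the same origin was called: they ran from -0.74 ± 0.11 in aNE_H to 0.45 ± 0.11 in pNE_M. The change from day 2 in hindbrain medium differed between origins by 1.11 ± 0.16 for B2M (pNE change minus aNE change, adjusted p = 0.00029). That call is at the fold threshold, and the value was 0.997 without the aNE_H library of replicate 1 and 0.996 without the pNE library of replicate 2.

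HLA-B also differed by origin in midbrain medium, 1.10 ± 0.16 higher in pNE_M than in aNE_M (limma, adjusted p = 0.00030). The value was 0.93 without either the aNE_M or the pNE_M library of replicate 2, which is under the fold threshold, and the adjusted p was 0.096 when the libraries of these 2 groups were fitted alone. HLA-C was higher in the pNE-derived libraries in all 3 media, by 0.30 ± 0.06 in forebrain, 0.73 ± 0.06 in midbrain and 0.66 ± 0.06 in hindbrain medium, all under the fold threshold. Of the 8 members, 1 was called in pNE_T against aNE_T, HLA-DPB2, where 7.77% of all tested genes were called. In pNE_M against aNE_M 2 members were called, HLA-B and B2M, with 5.74% of all genes. In pNE_H against aNE_H 1 was called, B2M, with 6.83% of all genes. At day 2, pNE against aNE, 0 members were called by limma, 3 had an unadjusted p below 0.05, and 3.85% of all genes were called.

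The most members were called in midbrain medium after aNE. In aNE_M against aNE, 6 of 8 were called, where 12.0% of all tested genes were: HLA-B, HLA-C, HLA-DPA1, HLA-DPB1 and HLA-DPB2 fell and CD74 rose. The median log2 difference of the members was -1.14 there, and that of all genes -0.02. In aNE_H against aNE 2 of 8 were called, HLA-B and HLA-C, both lower, with 10.1% of all genes and a members' median of -0.69. In pNE_M against pNE 3 were called, HLA-B and HLA-DPB2 lower and CD74 higher, with 12.7% of all genes and a members' median of 0.05. In pNE_H against pNE 3 were called, HLA-B, HLA-C and HLA-DPB2, all lower, with 12.3% of all genes and a members' median of -0.03. In the forebrain medium 0 of 8 were called by limma for either origin: 3 had an unadjusted p below 0.05 in aNE_T against aNE, where 9.03% of all genes were called, and 4 in pNE_T against pNE, where 10.2% were. In aNE_M against aNE, HLA-DPA1 was at -0.83 without the aNE library of replicate 2. Without the aNE_M library of replicate 2 it was at -0.85, and both values are under the fold threshold. In pNE_M against pNE, CD74 was at 0.91 without the pNE library of replicate 1, also under that threshold.

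**Figure D2:**
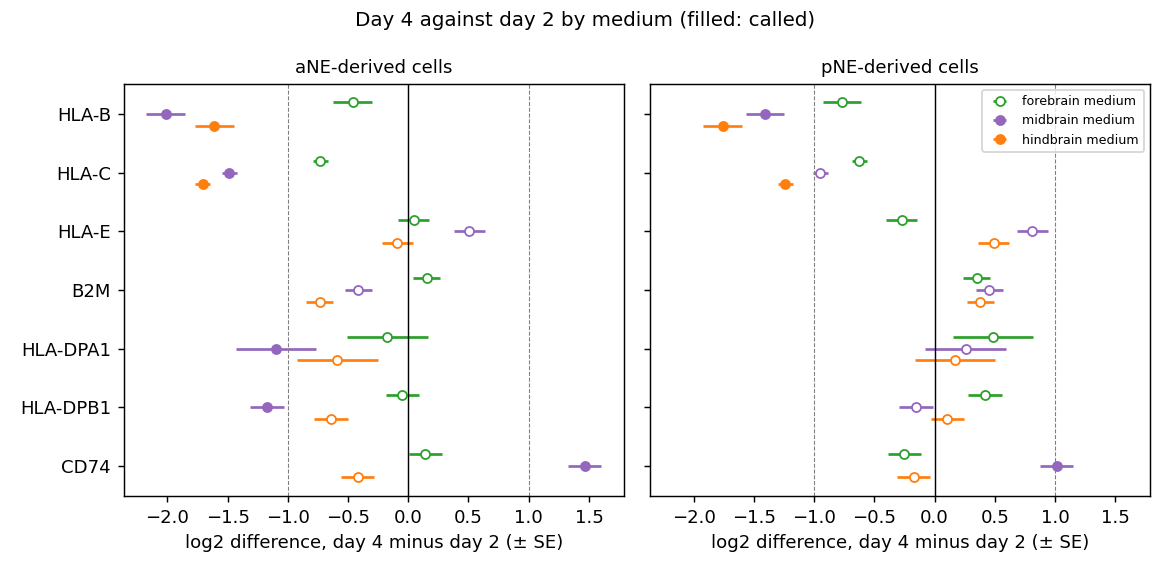
Log2(TPM + 1) difference of each of 7 members in the 3 day-4 media against day 2 of the same origin, aNE-derived cells on the left and pNE-derived on the right; points are limma estimates with their SE (n = 2 libraries a group), filled where called, and dashed lines mark 1 and -1. HLA-B and HLA-C lie left of 0 in all 6 comparisons, and CD74 lies right of 1 in midbrain medium for both origins.

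Between the media themselves, 3 of 8 members were called in aNE_M against aNE_T, where 10.1% of all genes were called. HLA-B fell by 1.55 ± 0.16 (limma, adjusted p = 7.5e-06), HLA-DPB1 fell by 1.12 ± 0.14 (adjusted p = 3.9e-05) and CD74 rose by 1.33 ± 0.14 (adjusted p = 7.3e-06). In aNE_H against aNE_T 1 was called, with 6.60% of all genes: HLA-B fell by 1.15 ± 0.16 (adjusted p = 0.00017), a call that quantile normalization ended, at -0.99. In aNE_H against aNE_M 1 was called, CD74, with 4.92% of all genes. In pNE_M against pNE_T 3 were called, HLA-E and CD74 higher and HLA-DPB2 lower, with 8.60% of all genes. In pNE_H against pNE_T 0 of 8 were called by limma, 5 had an unadjusted p below 0.05, and 5.03% of all genes were called; HLA-B came nearest, at -0.99 ± 0.16. In pNE_H against pNE_M 1 was called, CD74, with 5.99% of all genes.

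Part of the genes that make and load class I peptides were called lower in day-4 cells. The list holds 14 genes, of which 13 were tested, and it was chosen with earlier results of these data known. Against day 2 of the same origin, 3 of 13 were called lower in aNE_T, 6 in aNE_M, 7 in aNE_H, 5 in pNE_T, 6 in pNE_M and 5 in pNE_H, and 0 were called higher in any of these comparisons. The list's median log2 difference after aNE was -0.24 in forebrain, -0.89 in midbrain and -1.05 in hindbrain medium, beside 0, -0.02 and -0.04 over all genes. After pNE it was -0.43, -0.78 and -0.73, beside -0.03, -0.06 and -0.08. Of all tested genes, 4.42% were called lower in aNE_T, 7.63% in aNE_M, 6.83% in aNE_H, 5.56% in pNE_T, 7.85% in pNE_M and 7.80% in pNE_H, and these shares also stand behind the counts of the lists below. Called higher were 4.61%, 4.34%, 3.24%, 4.68%, 4.87% and 4.47% in the same order.

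PSMB8, a catalytic subunit of the immunoproteasome, was at 9.24 and 15.4 TPM in aNE and 18.7 and 13.4 in pNE. In midbrain medium it was at 0.437 and 0.301 TPM after aNE and 0.221 and 0.136 after pNE, and it was listed at 0 in both aNE_H libraries. Its midbrain libraries were all below 1 TPM, and it fell by 3.25 ± 0.22 in aNE_M (limma, adjusted p = 1.3e-07) and by 3.84 ± 0.22 in pNE_M (adjusted p = 2.6e-08). PSMB9, another immunoproteasome subunit, averaged 9.20 TPM in aNE and 0.312 in aNE_M, and 11.3 in pNE and 0.271 in pNE_M. TAP1, which forms the peptide transporter with TAP2, averaged 16.5 TPM in aNE, 7.20 in aNE_T, 2.54 in aNE_M and 2.00 in aNE_H. From pNE, TAP1 averaged 19.9 TPM at day 2, 7.55 in forebrain, 3.30 in midbrain and 2.56 in hindbrain medium. TAP1 was called lower in all 6 comparisons, with differences from -1.09 ± 0.16 in aNE_T to -2.56 ± 0.16 in pNE_H. TAPBP, the tapasin that tethers class I to the transporter, fell by 1.83 ± 0.17 in aNE_H (adjusted p = 3.3e-06) and by 2.10 ± 0.17 in pNE_H (adjusted p = 6.0e-07).

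From stem cells to day 2, part of the same list rose. Against hPSC 3 of 13 rose at day 2 and 1 fell, for either origin. Of all tested genes 7.36% were called higher and 6.19% lower in aNE, and 7.14% and 5.74% in pNE, so the 1 that fell is near the share of all genes. TAP1 went from 6.78 ± 1.02 TPM in hPSC to 16.5 ± 0.89 in aNE and 19.9 ± 1.17 in pNE (SD, n = 2), and was called higher in both, by 1.18 ± 0.16 and 1.43 ± 0.16 on the log2 scale (SE). PSMB9 rose by 1.41 ± 0.22 in aNE and 1.68 ± 0.22 in pNE, and ERAP1, which trims peptides in the endoplasmic reticulum, rose by 1.24 ± 0.20 and 1.09 ± 0.20. PSMB10, also an immunoproteasome subunit, fell by 1.12 ± 0.23 and 1.08 ± 0.23. HLA-B itself had a log2 difference from hPSC of -0.36 ± 0.16 in aNE and 0.14 ± 0.16 in pNE, neither called.

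**Figure D3:**
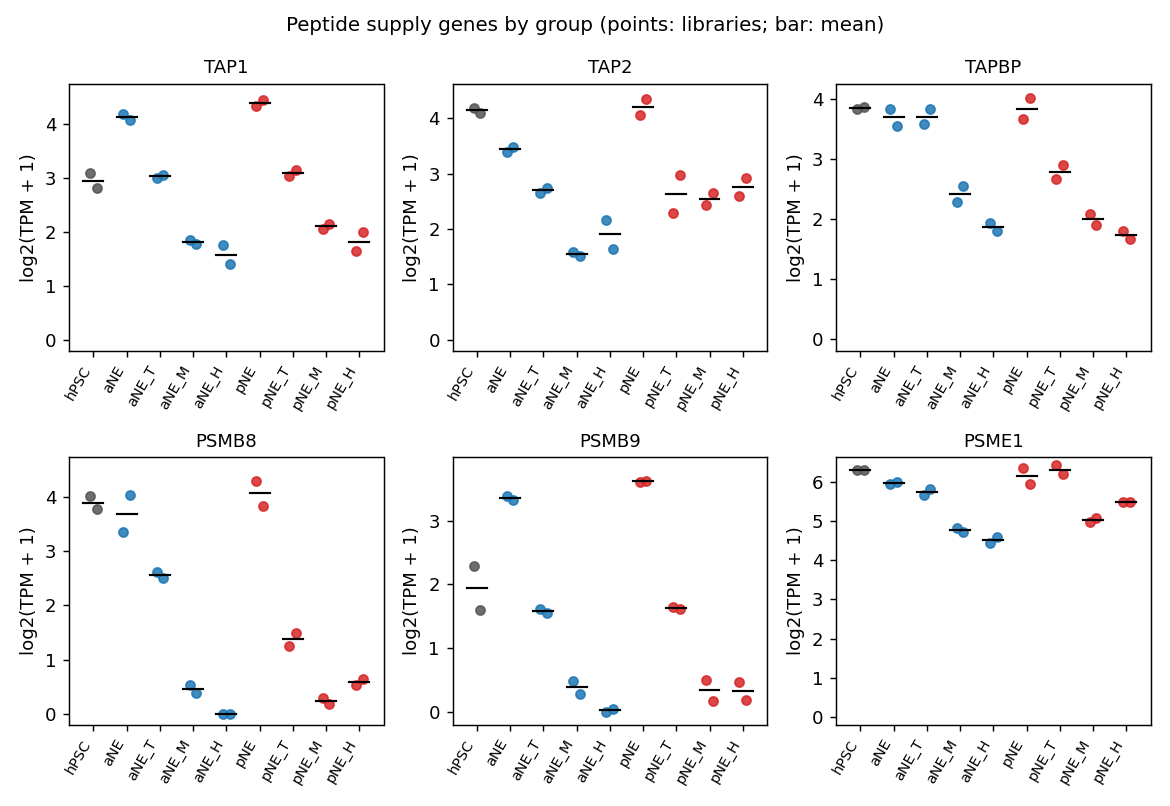
Levels of 6 genes of peptide supply as log2(TPM + 1) in the 9 groups; points are libraries and bars are means of 2, coloured grey for hPSC, blue for aNE-derived and red for pNE-derived cells. TAP1 and PSMB9 are higher at day 2 than in hPSC, and all 6 genes are lower in midbrain and hindbrain medium than at day 2 of the same origin.

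Of 9 tested genes among 13 other class I and class I-like genes, 2 were called lower in aNE_M and 2 in aNE_H against aNE. They were FCGRT and HLA-F in each, and 0 were called higher. Under quantile normalization 1 was called in aNE_M and 1 in aNE_H. HLA-G, HLA-K and CD1D, also among the 9, passed the filter through the hPSC libraries alone. They averaged 0.406, 0.194 and 0.237 TPM in aNE, too low to be called lower than aNE. FCGRT, the neonatal Fc receptor, which also pairs with beta-2-microglobulin, fell by 1.42 ± 0.16 in aNE_M (adjusted p = 1.2e-05). HLA-F averaged 11.8 TPM in hPSC, 1.40 in aNE and 1.36 in pNE.

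NLRC5, the class I transactivator, was at 0.104 to 1.02 TPM over the 18 libraries and was not called in any comparison. At such levels no difference between 2 groups could reach the fold threshold on this scale, so the missing call tells nothing. Its means ran from 0.140 TPM in aNE_M to 0.971 in aNE_T. CIITA, the class II transactivator, was at 0.147 to 1.29 TPM and was not tested. Of 13 tested regulators, IRF1 and IRF2, which bind interferon response elements, were the ones called lower in hindbrain medium. IRF1 fell by 1.03 ± 0.29 in aNE_H (limma, adjusted p = 0.018) and by 1.10 ± 0.29 in pNE_H (adjusted p = 0.010), and IRF2 fell by 1.05 ± 0.17 and 1.01 ± 0.17. Under quantile normalization 0 of the 13 were called in either comparison. IRF2 was also called lower in pNE_M against pNE, by 1.15 ± 0.17. Of 17 tested interferon-stimulated genes, 6 fell in aNE_M, 5 in aNE_H, 4 in pNE_M and 5 in pNE_H against day 2, and 1 rose in pNE_M, where 7.63%, 6.83%, 7.85% and 7.80% of all genes were called lower and 4.87% higher in pNE_M. TRIM22, an antiviral ubiquitin ligase, averaged 63.1 TPM in aNE and 3.53 in aNE_M, and 40.7 in pNE and 2.69 in pNE_M. BST2, or tetherin, averaged 17.8 TPM in aNE and 5.48 in aNE_M, and 20.5 in pNE and 2.58 in pNE_M. In forebrain medium 3 of the 17 fell and 1 rose after aNE, beside 4.42% of all genes lower and 4.61% higher in aNE_T. After pNE 7 of the 17 fell in that medium, beside 5.56% of all genes lower in pNE_T. TRIM22 fell by 2.84 ± 0.23 in aNE_T and by 3.84 ± 0.23 in pNE_T. The list medians in the order aNE_M, aNE_H, pNE_M and pNE_H were -0.18, -0.63, -0.66 and -0.58, and they were 0.04 in aNE_T and -0.49 in pNE_T. Of 16 tested interferon receptors and signalling genes against day 2, after aNE 1 rose and 1 fell in forebrain medium and 1 rose in midbrain medium, SOCS1, a feedback inhibitor of interferon signalling, by 1.54 ± 0.17. After pNE 1 fell in forebrain, 2 in midbrain and 1 in hindbrain medium, and those in midbrain medium were IRF7, by 1.33 ± 0.19, and STAT3, by 1.18 ± 0.09. Of all genes, 4.61% were called higher and 4.42% lower in aNE_T, and 4.34% higher in aNE_M. Called lower were 5.56% in pNE_T, 7.85% in pNE_M and 7.80% in pNE_H. Each count of 1 among these 16 genes is near the share of all genes.

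CD74, the invariant chain, was high in stem cells and in midbrain medium and low in the other groups. It was at 41.4 and 36.0 TPM in hPSC, 13.4 and 13.0 in aNE and 14.2 and 16.6 in pNE. From aNE it went to 15.0 and 14.3 TPM in forebrain, 36.3 and 40.4 in midbrain and 11.1 and 8.33 in hindbrain medium. From pNE it went to 11.7 and 13.9 TPM in forebrain, 34.6 and 29.6 in midbrain and 13.6 and 13.5 in hindbrain medium. The 6 libraries of hPSC, aNE_M and pNE_M were all above the other 12, hPSC and aNE_M overlapping at the top, and aNE_H was lowest. Against hPSC, CD74 was the member called among the 7 that could be tested: it fell by 1.48 ± 0.14 in aNE (limma, adjusted p = 2.6e-06), where 13.5% of all genes were called, and by 1.28 ± 0.14 in pNE (adjusted p = 1.0e-05), where 12.9% were. The 2 comparisons share the hPSC libraries. CD74 rose from day 2 by 1.47 ± 0.14 in aNE_M (adjusted p = 2.6e-06) and by 1.01 ± 0.14 in pNE_M (adjusted p = 7.1e-05). The latter was 0.91 without the pNE library of replicate 1 and 0.90 without the pNE_M library of replicate 1, both under the fold threshold. Between media, CD74 had a log2 difference of -1.89 ± 0.14 in aNE_H against aNE_M and of -1.18 ± 0.14 in pNE_H against pNE_M.

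HLA-DPB1, the class II beta chain, was called lower in midbrain medium after aNE and was not called there after pNE. It was at 44.3 and 45.4 TPM in hPSC, 33.2 and 36.7 in aNE and 26.7 and 31.5 in pNE. From aNE it went to 35.8 and 31.7 TPM in forebrain, 14.4 and 15.4 in midbrain and 25.5 and 18.9 in hindbrain medium. From pNE it went to 37.6 and 40.6 TPM in forebrain, 26.1 and 25.8 in midbrain and 35.1 and 28.0 in hindbrain medium. Both aNE_M libraries were below the other 16. HLA-DPB1 fell by 1.17 ± 0.14 in aNE_M against aNE (limma, adjusted p = 2.5e-05), and its difference in pNE_M against pNE was -0.16 ± 0.14 (adjusted p = 0.42). The change in midbrain medium differed between origins by 1.02 ± 0.20 (pNE change minus aNE change, adjusted p = 0.0037). That value was 0.94 without the aNE library of replicate 2, 0.97 without the aNE_M library of replicate 1 and 0.90 without the pNE library of replicate 1, all under the fold threshold. Of the 8 members, 1 was called for this difference of changes in midbrain medium, where 7.02% of all genes were, 1 in hindbrain medium, B2M, where 7.83% were, and 0 in forebrain medium, where 1 had an unadjusted p below 0.05 in limma and 7.14% of all genes were called.

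HLA-DPA1, the alpha chain that pairs with HLA-DPB1, was low throughout, at 0.915 to 5.36 TPM. Its means ran from 4.69 TPM in hPSC to 1.31 in aNE_M. It was at 3.04 and 4.87 TPM in aNE and 1.71 and 0.915 in aNE_M, where it fell by 1.10 ± 0.34 (limma, adjusted p = 0.022). That call was lost under quantile normalization (-0.88, adjusted p = 0.070), without the aNE library of replicate 2 (-0.83) and without the aNE_M library of replicate 2 (-0.85). In TPM, which is per length, HLA-DPB1 was above HLA-DPA1 in every library.

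HLA-DPB2, a pseudogene that makes RNA and no known class II chain, was at 238 and 254 TPM in hPSC, above HLA-DPB1 there. It was at 3.32 and 1.96 TPM in aNE and 6.72 and 2.46 in pNE. After aNE it was at 0.524 and 0.163 TPM in forebrain medium, listed at 0 in both midbrain libraries, and at 0 and 2.27 in hindbrain medium. After pNE it was at 2.73 and 3.50 TPM in forebrain, 1.19 and 0 in midbrain and 0.613 and 0.855 in hindbrain medium. The hPSC libraries stood far above the other 16, which is what it was picked for, and it was below 1 TPM in 8 of the 18. Among the low groups, 5 comparisons were called, and each of the 5 lost its call under at least 1 other setting. The pNE_T libraries, for instance, were above the aNE_T libraries by 1.62 ± 0.51 on the log2 scale (limma, adjusted p = 0.038), and the adjusted p was 0.085 to 0.19 when any 1 of those 4 libraries was left out. Its transcripts share 3.95% of their 31-base words with HLA-DPB1, whose level moved far less.

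**Figure D4:**
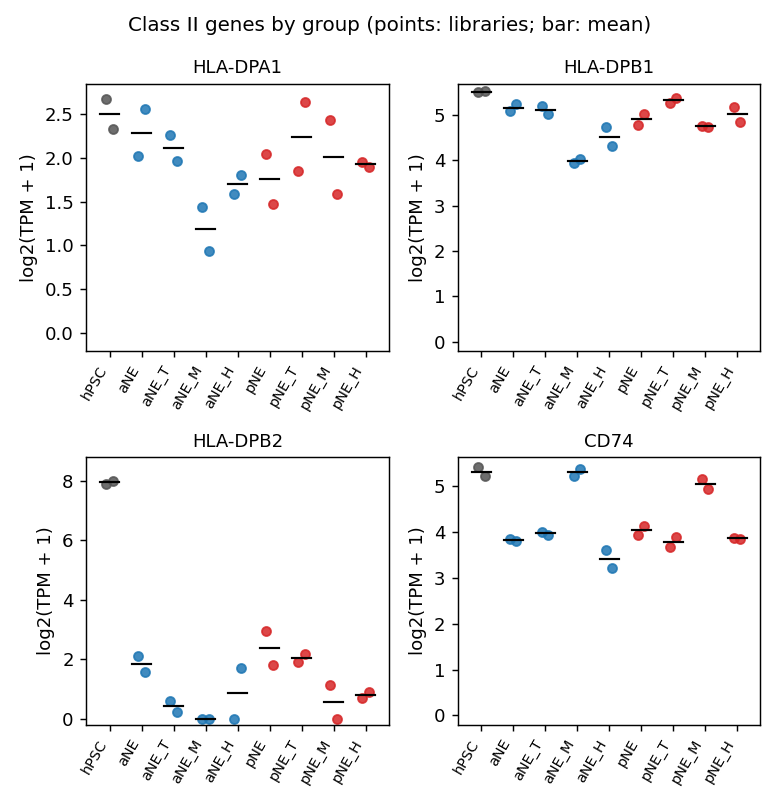
Levels of CD74 and the HLA-DP genes as log2(TPM + 1) in the 9 groups; points are libraries and bars are means of 2, coloured grey for hPSC, blue for aNE-derived and red for pNE-derived cells. CD74 is high in hPSC, aNE_M and pNE_M, HLA-DPB1 is lowest in aNE_M, and HLA-DPB2 is high, at 238 and 254 TPM, in hPSC alone.

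HLA-DPA3, a pseudogene next to HLA-DPB2 at 6:33131197-33131343, was also highest in hPSC. It was at 21.1 and 13.3 TPM in hPSC and listed at 0 in the other 16 libraries. HLA-DRA, the alpha chain of HLA-DR, was at 3.84 and 4.62 TPM in hPSC and averaged 1.03 in aNE and 0.334 in pNE. Both genes passed the filter through the hPSC libraries, so their difference from hPSC is a description with no test. Of 8 tested class II genes that are no members, 2 were called lower in aNE_M and 1 in aNE_H against aNE. Of all genes 7.63% and 6.83% were called lower there. Under quantile normalization 0 of the 8 were called in aNE_M. The 8 include HLA-DPA3 and HLA-DRA, and HLA-DPA3, listed at 0 in these groups, could not be called. HLA-DRA was at 1.19 and 0.873 TPM in aNE and listed at 0 in both aNE_M libraries, so it was near the floor. HLA-DMA and HLA-DOA, which edit class II loading, were at 9.23 to 15.9 and 3.99 to 22.0 TPM.

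Among 9 genes of class II processing and CD74 signalling, 3 rose in aNE_M and 2 in pNE_M against day 2, where 4.34% and 4.87% of all genes were called higher, and 0 fell in either. CTSB, a lysosomal cathepsin, averaged 33.4 TPM in aNE and 101 in aNE_M, and 39.1 in pNE and 105 in pNE_M. It rose by 1.57 ± 0.10 (limma, adjusted p = 7.0e-08) and 1.40 ± 0.10 (adjusted p = 2.0e-07). CXCR4, a chemokine receptor that can act with CD74 as a receptor for MIF, rose by 1.77 ± 0.21 in aNE_M and by 3.21 ± 0.21 in pNE_M. CTSL, a cathepsin that cuts the invariant chain, rose by 1.17 ± 0.12 in aNE_M. CD44, the signalling partner of CD74, was not called in midbrain medium against day 2 and rose by 1.64 ± 0.25 in pNE_H.

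Class II genes and CD74 mark professional immune cells, so 15 immune cell markers were read in the same libraries. Their summed level was 27.3 to 31.9 TPM in hPSC and 10.2 to 17.5 TPM in the other 16 libraries. AIF1 made up most of the hPSC sum, at a mean of 17.9 TPM, and PTPRC, the pan-leukocyte marker CD45, averaged 1.83 to 6.02 TPM over the groups. MS4A1, CD14, CD3E and LYZ were below 1 TPM in all 18 libraries. In aNE_M, where CD74 was high, the sum was 14.7 to 15.1 TPM, and in pNE_M 10.2 to 11.8 TPM. CD4 averaged 5.91 TPM in aNE_M and 4.43 in pNE_M, against 1.34 in aNE and 2.05 in pNE. The part of these markers in the result was not tested. In bulk RNA, fewer cells of a type and less RNA per cell cannot be told apart for any of the genes above.

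The genes most like 4 of the members were found by Pearson's r over the 18 libraries among 12444 genes with a group mean of at least 5 TPM, as a description without a test. For HLA-B, the first was a gene that is not reported here, followed by DMKN (r = 0.937), which averaged 341 TPM in hPSC and 66.3 in aNE_M, and PATJ (r = 0.933). For B2M they were VWA1 (r = 0.886), ACSM3 (r = 0.863) and HAUS4 (r = 0.845). VWA1 averaged 6.54 TPM in aNE_H and 49.7 in pNE_H. For CD74 they were AGTRAP (r = 0.910), IGSF8 (r = 0.893) and B4GALT5 (r = 0.884), and IGSF8 averaged 78.2 TPM in hPSC, 21.4 in aNE and 56.1 in aNE_M. For HLA-DPB2 they were ZDHHC22 (r = 0.974), BRINP1 (r = 0.961) and VEPH1 (r = 0.961), an order that rests on the hPSC libraries. HLA-E was nearer to CD74 (r = 0.72) than to HLA-B (r = -0.22), and HLA-DPA1 had an r of 0.75 with HLA-DPB1.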

How the data were processed

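RNA was measured in 18 libraries of 9 groups. The authors deposited gene-level TPM values; per the submitters' processing notes the build was hg38 and the tools included kallisto, with versions and annotation not given in the sources used here. TPM sums to the same total in each library, so a gene's value also depends on all others, and depth is unknown. Of 37550 rows, 7902 had no gene symbol.

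Values were analysed as log2(TPM + 1), a pseudocount of 1, for the 17033 genes that reached 1 TPM in 2 or more libraries; differences on this scale understate changes of low genes. limma 3.58.1 (R 4.3.3) fitted 1 mean per group over all libraries with a variance trend and 9 residual degrees of freedom. Two-sided p-values were adjusted by Benjamini-Hochberg over all tested genes, separately for 18 comparisons of 2 groups and 3 differences of changes between origins. The fit was tested on simulated data. The members and gene lists were chosen with earlier results of these data known; of each list, up to 4 called genes with the largest difference were named, plus CIITA, NLRC5 and TAP1; some genes of this rule and of the lists are not reported here. Other genes were named after their values were seen. Promoters and positions are from RefSeq (GRCh38.p14), and shared 31-base words from GENCODE 29. Alternatives were another pseudocount (0.1), no filter or one at 5 TPM, median-ratio scaling, quantile normalization, only the compared libraries, a replicate block, no trend, the adjusted p alone, and each library left out.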

Additional observations from a re-analysis of the deposited data

Results flagged for a closer look

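A pair of results is listed because the change from day 2 differed between the origins by a test of the difference itself. For HLA-DPB1 in midbrain medium the change after pNE minus the change after aNE was 1.02 on the log2(TPM + 1) scale (limma, adjusted p = 0.0037): HLA-DPB1 went from a mean of 34.9 to 14.9 TPM after aNE and from 29.1 to 25.9 after pNE. For B2M in hindbrain medium the same difference was 1.11 (adjusted p = 0.00029): B2M went from 67.6 to 40.3 TPM after aNE and from 85.1 to 111 after pNE. Plating density at day 4 differed with origin, so the 2 cannot be told apart in either result.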

How the results depend on the processing

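Of 166 pairs of member and comparison tested, 31 were called. Of these, 20 kept their call under all alternatives and 11 lost it under at least 1, all 5 of HLA-DPB2 among them. Of differences called in the main fit or in the alternative, 0 changed sign, and sign changes of differences called in neither were not counted. Counts of members called moved by over 1.5 times as follows. With the adjusted p alone they were 3 in aNE and 5 in pNE against hPSC, 2 in aNE_T, 5 in aNE_H, 4 in pNE_T, 6 in pNE_M and 5 in pNE_H against day 2, 3, 5 and 5 in pNE_T, pNE_M and pNE_H against the aNE-derived cells of the same medium, 6 in aNE_M and 5 in aNE_H against aNE_T, 4 in aNE_H against aNE_M, 6 in pNE_M and 3 in pNE_H against pNE_T, 2 in pNE_H against pNE_M, and 3 and 4 for the difference of changes in midbrain and hindbrain medium. For pNE_T against aNE_T the count was 0 with a pseudocount of 0.1, without a filter and without the trend. It was 1 for pNE_H against pNE_T with a pseudocount of 0.1, 1 for aNE_T against aNE with the filter at 5 TPM or with only the compared libraries, 0 for aNE_H against aNE_T under quantile normalization, and 1 for pNE_M against aNE_M with only the compared libraries.

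With each library left out in turn, the lone library of its group being assumed to vary like the others, the counts ran from 4 to 5 in aNE_M, 2 to 3 in aNE_H, 1 to 3 in pNE_M and 2 to 3 in pNE_H against day 2. They were 0 throughout for pNE_T against aNE_T, 1 to 2 for pNE_M against aNE_M, aNE_H against aNE_T and aNE_H against aNE_M, 2 to 3 for pNE_M and 0 to 1 for pNE_H against pNE_T, 0 to 2 for the difference of changes in midbrain medium and 0 to 1 in hindbrain medium, and unchanged elsewhere. The fall of HLA-DPB2 from hPSC to pNE was -6.15 without the pNE library of replicate 1 and -5.00 without that of replicate 2. The cause was not tested, other than that leaving out a library leaves fewer samples. Each comparison was read only without libraries of its own groups, so the effect of leaving out other libraries is not known.

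Same-numbered libraries did not deviate together: over 36 pairs of groups the correlation of their deviations from the group means was -0.09 to 0.076 (median 0.002). With the replicate block, 1 call was lost, HLA-DPB2 in pNE_M against pNE_T (-1.47, adjusted p = 0.058); the counts with the block were 6 in aNE_M, 2 in aNE_H, 3 in pNE_M and 3 in pNE_H against day 2.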

Other observations

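Ligands read by natural killer cells were measured beside HLA-E. Of 7 tested of 10, ULBP1, a stress ligand of NKG2D, rose from a mean of 0.365 TPM in hPSC to 3.90 in aNE and 4.88 in pNE, by 1.84 ± 0.18 and 2.11 ± 0.18 on the log2 scale (limma, adjusted p = 4.5e-06 and 1.4e-06). In midbrain medium, where HLA-B was low and HLA-E at its highest within each origin, ULBP1 fell to 0.761 TPM after aNE and 1.35 after pNE, by 1.49 ± 0.18 and 1.33 ± 0.18. CD47, which restrains macrophages, averaged 17.1 TPM in pNE and 48.9 in pNE_H, a rise of 1.46 ± 0.18, and 11.9 TPM in aNE_H.

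The 6 endothelial markers summed to 9.88 to 47.2 TPM per library, highest in pNE_T, where CDH5, or VE-cadherin, averaged 23.1 TPM against 0.688 in pNE. The markers did not move together there: of 4 tested, CDH5 and TEK rose and VWF fell, from 3.21 to 0.977 TPM, and PECAM1, which was not tested, averaged 0.607 TPM in pNE and 0.0809 in pNE_T.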
